A study of Arabidopsis thaliana with 6 samples.

Results

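Plants that run short of oxygen switch on a common set of transcripts in nearly every organ. Group VII ethylene response factors such as RAP2.12 drive this set, and they are broken down through the oxygen-dependent N-degron pathway when oxygen is plentiful. HRA1 (AT3G10040), a trihelix transcription factor, is itself induced by low oxygen and dampens RAP2.12 activity in a feedback loop. In Arabidopsis shoots the set also holds enzymes of ethanol and lactate fermentation and many genes of unknown function.

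The genes described here are HRA1 and 9 other loci of the low-oxygen response: AT5G42200, AT1G33055, AT4G24110, AT4G10270, AT5G66985, AT5G10040, AT3G27220, AT4G27450 and AT2G17850. They were chosen as probe sets that the platform annotation gives to these loci alone, which gave 10 probe sets of 22746 in all. The choice was made with their estradiol minus DMSO differences in view, so those differences are given as a description, without a test. All 10 loci are protein-coding genes in the RefSeq annotation.

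The study used Arabidopsis thaliana Col-0 seedlings, 2 weeks old, of MYB112-IOE line 1, in which β-estradiol switches on the transcription factor MYB112. Shoots were collected 3 h or 5 h after 10 µM estradiol or DMSO was given to seedlings that had spent 16 h in shaken liquid medium. Both treatments therefore carried the same construct and came from a single transgenic line, and the labels do not name the promoter that drives the inducible activator. Affymetrix ATH1 arrays measured 1 estradiol and 1 DMSO sample at 3 h and 2 of each at 5 h, 6 arrays in all, and their small number limits the precision. Wild-type plants given estradiol were not analysed here. The study looks for early, possibly direct, targets of MYB112, and with 0 probe sets named for MYB112 in the annotation used its induction could not be checked.

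Values are levels on the log2 scale, and a pair is the estradiol and DMSO array of the same time and replicate number. Each pair shared a lowest value of its own (2.1 at 3 h, 2.14 and 2.16 in replicates 1 and 2 at 5 h), and the pairs were treated as normalized separately. Differences were therefore taken within pairs, and levels set across pairs carry that limit. Of 8 shoot markers, 3 had a named probe set, and the photosynthesis genes RCA, LHCB4.1 and PRK had levels of 11.24 to 13.84 on all arrays. Of 8 root markers, 2 were named, and the root-hair expansin genes EXPA7 and EXPA18 lay at 2.1 to 2.96, under the filter of 3.56 on the log2 scale.

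HRA1 had levels of 8.91 with DMSO and 6.27 with estradiol at 3 h, of 6.25 and 4.52 in replicate 1 at 5 h, and of 6.85 and 4.15 in replicate 2 at 5 h. The estradiol array was the lower one in every pair, and at 5 h both estradiol values lay below both DMSO values. Across times the groups overlapped, since the 3 h estradiol level of 6.27 was just above the 5 h DMSO level of 6.25. The estradiol minus DMSO difference was −2.64 at 3 h and −1.73 and −2.70 at 5 h, with a mean of −2.36 (SD 0.54, n = 3 pairs), a mean level 5.12-fold higher with DMSO. Ranked from the lowest difference among the 14520 probe sets above the filter, HRA1 stood at rank 3, 18 and 6 in the 3 pairs. In bulk tissue, fewer cells that express a gene and less RNA of it per cell cannot be told apart.

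**Figure D1:**
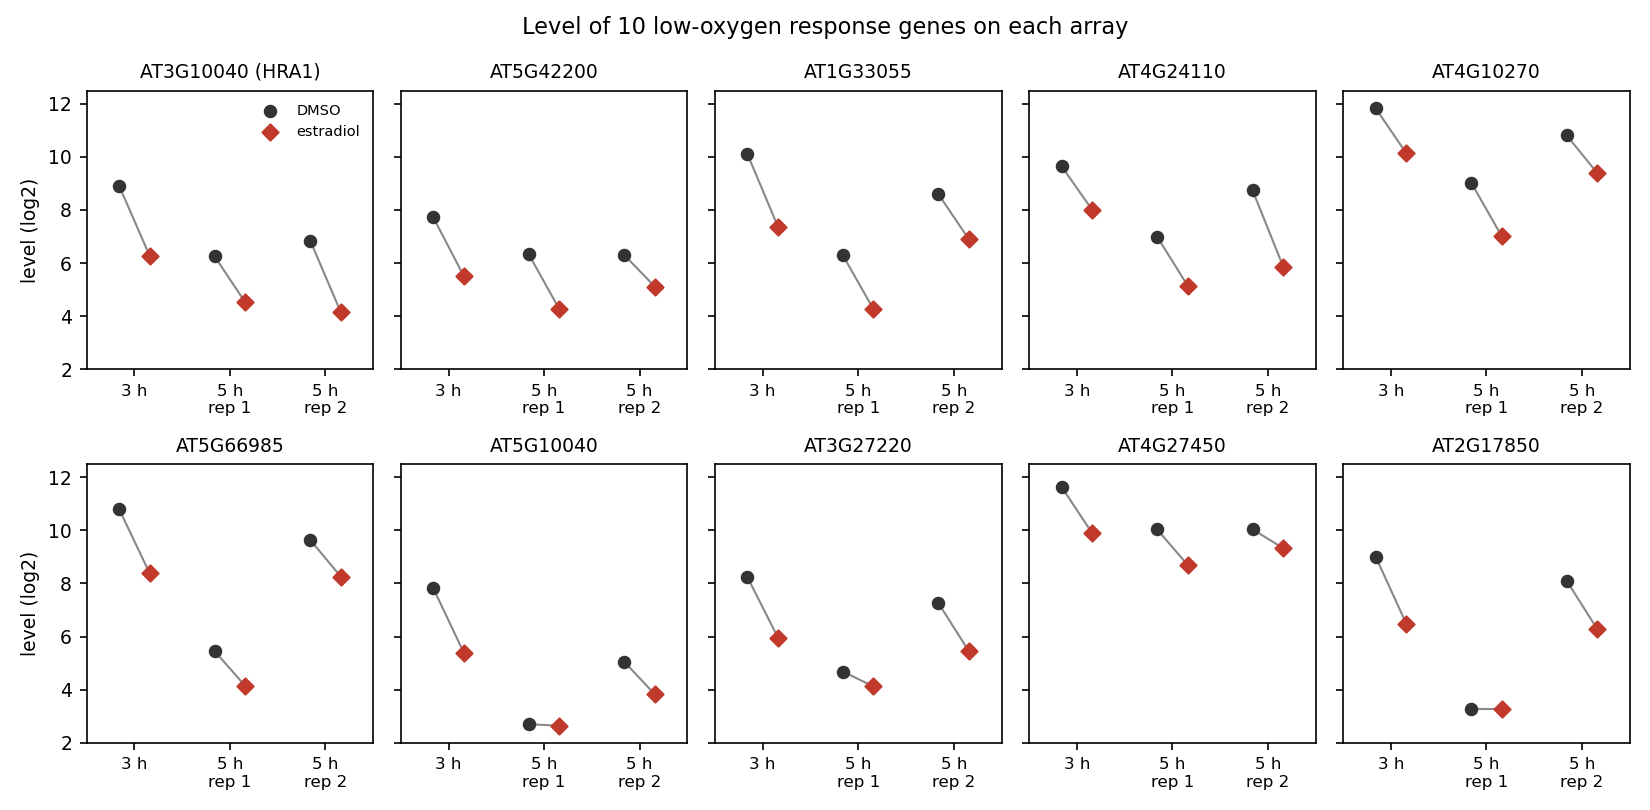
Level (log2, y axis) of each of the 10 genes in the 3 pairs (x axis); black circles are DMSO arrays, red diamonds estradiol arrays, and a line joins the arrays of a pair. All lines slope down except that of AT2G17850 in replicate 1 at 5 h, where both arrays read 3.27, and that of AT5G10040 in the same pair is nearly flat (2.70 and 2.64).

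AT5G42200 encodes a RING-type protein, a class that includes many ubiquitin ligases. Its DMSO levels were 7.72 at 3 h and 6.33 and 6.30 at 5 h, against 5.51, 4.26 and 5.11 with estradiol. All 3 estradiol values lay below all 3 DMSO values. The differences were −2.21, −2.07 and −1.19 (mean −1.82, SD 0.55, n = 3 pairs).

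Among genes that encode proteins of recognised families, AT4G27450, an aluminium-induced protein with YGL and LRDR motifs, shared this separation. Its DMSO levels were 11.64, 10.04 and 10.04 and its estradiol levels 9.90, 8.70 and 9.33, in the order 3 h, replicate 1 and replicate 2 at 5 h, which is kept below. Its mean difference was one of the smaller ones, at −1.26 (SD 0.52, n = 3 pairs), and replicate 2 at 5 h differed by only −0.71. AT4G10270, a wound-responsive family protein, was the steadiest member. Its DMSO levels were 11.83, 9.03 and 10.81 and its estradiol levels 10.14, 7.01 and 9.39. The difference was −1.69, −2.02 and −1.42, with a mean of −1.71 and the lowest SD of the 10 (0.30, n = 3 pairs). The 5 h groups overlapped in level, because both arrays of replicate 2 read higher than those of replicate 1.

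AT3G27220, which encodes a kelch-repeat protein, and AT2G17850, a rhodanese-domain protein, differed unevenly between pairs. AT3G27220 had DMSO levels of 8.24, 4.68 and 7.26 and estradiol levels of 5.96, 4.12 and 5.44. Its difference of −0.56 in replicate 1 at 5 h compares with −2.28 at 3 h and −1.82 in replicate 2. AT2G17850 read 9.01 and 8.10 with DMSO and 6.49 and 6.28 with estradiol at 3 h and in replicate 2 at 5 h. In replicate 1 at 5 h both its arrays read 3.27, so its difference was 0.00 there and its mean of −1.45 had the widest spread of the 10 (SD 1.30, n = 3 pairs).

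The other 4 members encode proteins of unknown function. AT1G33055 had DMSO levels of 10.11, 6.29 and 8.59 and estradiol levels of 7.37, 4.26 and 6.89, with a mean difference of −2.16 (SD 0.53, n = 3 pairs). Its difference of −2.74 at 3 h was the lowest of the 10 in that pair. AT4G24110 went the other way in time. Its DMSO levels were 9.65, 7.0 and 8.74 and its estradiol levels 8.01, 5.15 and 5.87, so the difference was −1.64 at 3 h and −1.85 and −2.87 at 5 h (mean −2.12, SD 0.66, n = 3 pairs). Both its 5 h estradiol values lay below both 5 h DMSO values.

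AT5G66985 had DMSO levels of 10.80, 5.45 and 9.64 and estradiol levels of 8.38, 4.14 and 8.26, with a mean difference of −1.70 (SD 0.62, n = 3 pairs). Its 5 h groups overlapped, as replicate 2 with estradiol read above replicate 1 with DMSO. AT5G10040 had DMSO levels of 7.82, 2.70 and 5.05 and estradiol levels of 5.39, 2.64 and 3.82. Its difference was −2.43 at 3 h, −0.06 in replicate 1 at 5 h and −1.23 in replicate 2, and its mean of −1.24 (SD 1.19, n = 3 pairs) was the smallest in size. Without the 3 h pair the mean was −0.65 for AT5G10040 and −0.91 for AT2G17850, both under a 2-fold difference.

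**Figure D2:**
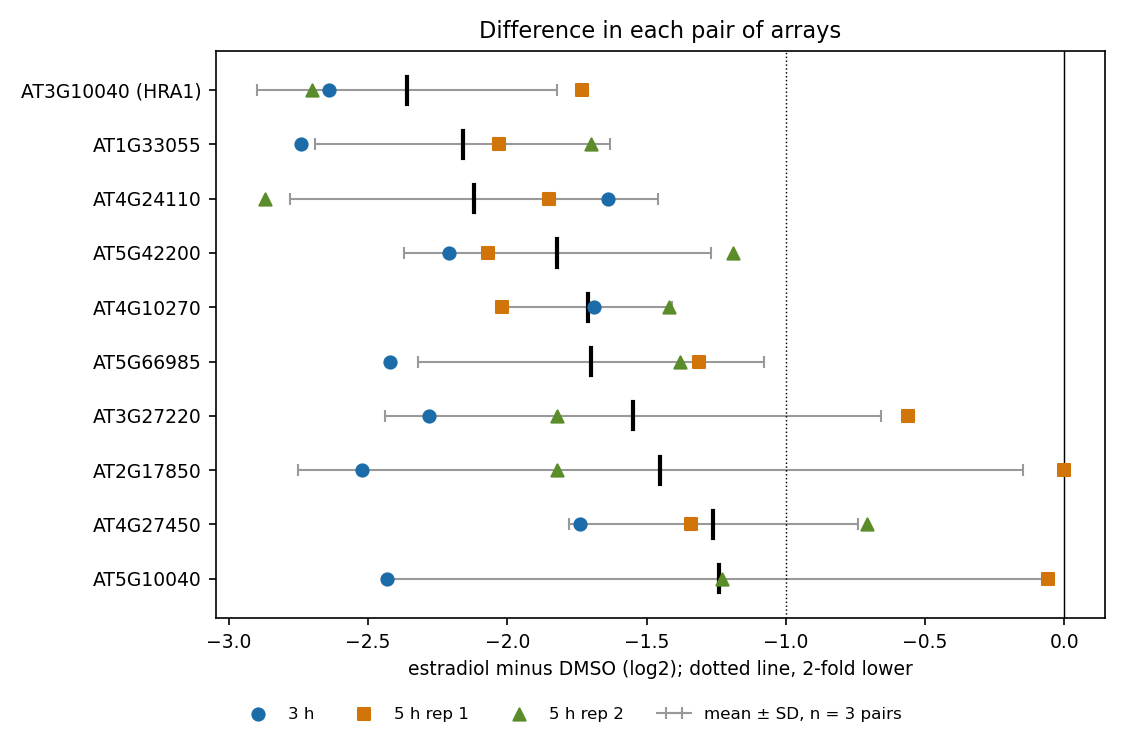
Estradiol minus DMSO difference (log2, x axis) of each gene (y axis, ordered by mean); coloured symbols are the 3 pairs, the black bar is the mean and the grey line the SD (n = 3 pairs). AT4G10270 has the tightest spread (SD 0.30), and AT2G17850 (SD 1.30) and AT5G10040 (SD 1.19) the widest, each with a value near 0 in replicate 1 at 5 h.

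In replicate 1 at 5 h, where AT2G17850 and AT5G10040 had near-zero differences, their levels were under 4 on both arrays. Of 9441 probe sets with both arrays of that pair under 4, 84.3% had the same value to 2 decimals on both. Among 13037 probe sets at 4 or above, 9.69% did. Whether the low level accounts for the near-zero differences of these 2 genes was not tested. With the pair left out for these 2 genes, a choice made after seeing the data, the median of the 10 mean differences was −1.83, against −1.71 with it.

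As a group, the 10 genes had a median difference of −2.35 at 3 h (range −2.74 to −1.64). At 5 h the median was −1.54 in replicate 1 (range −2.07 to 0.00) and −1.56 in replicate 2 (range −2.87 to −0.71). Over all 14520 probe sets above the filter the medians were −0.01, 0.00 and −0.04, with an SD over probe sets of 0.26, 0.33 and 0.41. All 10 genes passed the filter, and all 10 also passed it on the estradiol arrays alone.

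With estradiol, 10 of the 10 were lower at 3 h (50.1% of all probe sets), 9 in replicate 1 (39.3%) and 10 in replicate 2 at 5 h (55.3%), and 9 of the 10 were lower in all 3 pairs (17.1%). At 3 h, 10 of the 10 were at least 2-fold lower with estradiol, where 0.461% of all probe sets were. In replicate 1 at 5 h, 7 of 10 were (0.606% of all probe sets), and in replicate 2, 9 of 10 were (1.98%). Those at least 2-fold lower in all 3 pairs numbered 6 (0.0826%), namely HRA1, AT5G42200, AT1G33055, AT4G24110, AT4G10270 and AT5G66985. The genes were picked on these differences, so the counts describe the choice and support nothing further. At 5 h, the 2 estradiol values lay below the 2 DMSO values for 4 of the 10 (9.82% of 14078 probe sets), and over both times the 3 lay below the 3 for 2 of the 10 (0.716%).

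The difference at 3 h was lower than in both 5 h pairs for 7 of the 10 genes, beside 32.3% of all probe sets. These genes were chosen on the same differences, so the count is a description only. It includes AT5G10040 and AT2G17850, whose levels in replicate 1 at 5 h were under 4 on both arrays. HRA1 and AT4G24110 were lowest in replicate 2 at 5 h, and AT4G10270 in replicate 1. Between the 5 h pairs, replicate 1 had the lower difference for 4 genes and replicate 2 for 6, which was not counted over all probe sets. With 1 array per treatment at 3 h, the order of the times has no replicate error.

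Levels also differed between pairs within a treatment. The 3 h DMSO level was above both 5 h DMSO levels for 10 of the 10 genes, as for 68.4% of all probe sets, and by at least 1 on the log2 scale for 7 of them (13% of all). With estradiol the 3 h level was above both 5 h levels for 10 of the 10 (66.3% of all), by at least 1 for 3 of them (12.3%). Of the 16 other low-oxygen response genes counted below, 14 were highest at 3 h with DMSO, 5 of them by at least 1. With estradiol 10 of the 16 were, 4 of them by at least 1. The median shift of the 10 genes between DMSO arrays was 3.18 from replicate 1 at 5 h to 3 h, where all probe sets shifted by 0.46. It was 1.29 from replicate 2 at 5 h to 3 h, where all probe sets shifted by 0.55. Between estradiol arrays the median shift of the 10 was 2.80 from replicate 1 at 5 h to 3 h (0.41 for all probe sets) and 0.54 from replicate 2 at 5 h to 3 h, close to the 0.56 of all probe sets.

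Within 5 h the DMSO array of replicate 2 read higher than that of replicate 1 for 8 genes, equal for AT4G27450 and lower for AT5G42200. The median shift was 2.04, beside −0.06 for all probe sets, and AT2G17850 shifted the most, from 3.27 to 8.10. The gap between the 2 DMSO arrays of 5 h was larger than the size of the mean estradiol minus DMSO difference for 6 of the 10 genes. The matching counts over all probe sets were not taken, so these counts do not set the 10 genes apart. These levels come from pairs treated as normalized separately, and a part of them entered the differences on which the genes were chosen.

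Other genes of the pathway were counted from lists drawn from general knowledge with earlier results of these data known, so their direction is no independent evidence. Of 13 oxygen-sensing genes, among them RAP2.12, PRT6 and the plant cysteine oxidases, 0 had a named probe set. Of 42 other low-oxygen response genes, 17 were named and 16 passed the filter. Their median difference was −0.97 at 3 h, −0.16 in replicate 1 and −0.45 in replicate 2 at 5 h. These medians were smaller in size than those of the 10 members in every pair. The members were chosen on these differences, so that contrast follows from the choice and was not tested. The mean over pairs was below 0 for 16 of 16 (54.3% of all probe sets), with a range of −1.14 to −0.33, and at least 2-fold lower for 2 of 16 (0.31% of all).

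Among the regulators, CML38, a calmodulin-like protein, differed by −1.06, 0.05 and −1.23, the universal stress protein HRU1 by −0.62, 0.00 and −0.90, and FHL, which acts in phytochrome A nuclear import, by −0.44, −0.03 and −0.51. These were the 3 of 11 listed regulators with a named probe set, and all were close to 0 in replicate 1 at 5 h. In that pair FHL was under 4 on both arrays (2.76 with estradiol and 2.79 with DMSO). HRU1 (7.70 on both) and CML38 (7.53 and 7.48) were not. Of 10 listed genes of fermentation and sucrose use, only 2 had a named probe set. PDC2, a pyruvate decarboxylase, differed by −0.36, −0.60 and −0.81, and the lactate dehydrogenase gene AT4G17260 by −0.61, −0.03 and −0.36. Of the 11 further core genes above the filter, 11 were lower at 3 h (50.1% of all probe sets). At 5 h, 7 were lower in replicate 1 (39.3%) and 10 in replicate 2 (55.3%). Some of these, picked after their values were seen, were AT4G33560, a wound-responsive family gene like AT4G10270 (−1.43, −0.29 and −1.70), and AT1G19530 (−2.12, −0.42 and 0.08). The 3 named glycolysis genes had a median of the mean differences of −0.14: GAPC2 differed by −0.01, −0.09 and −0.01, TPI by −0.18, −0.15 and −0.16, and the phosphoglucose isomerase gene AT5G42740 by 0.06, −0.09 and −0.39.

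**Figure D3:**
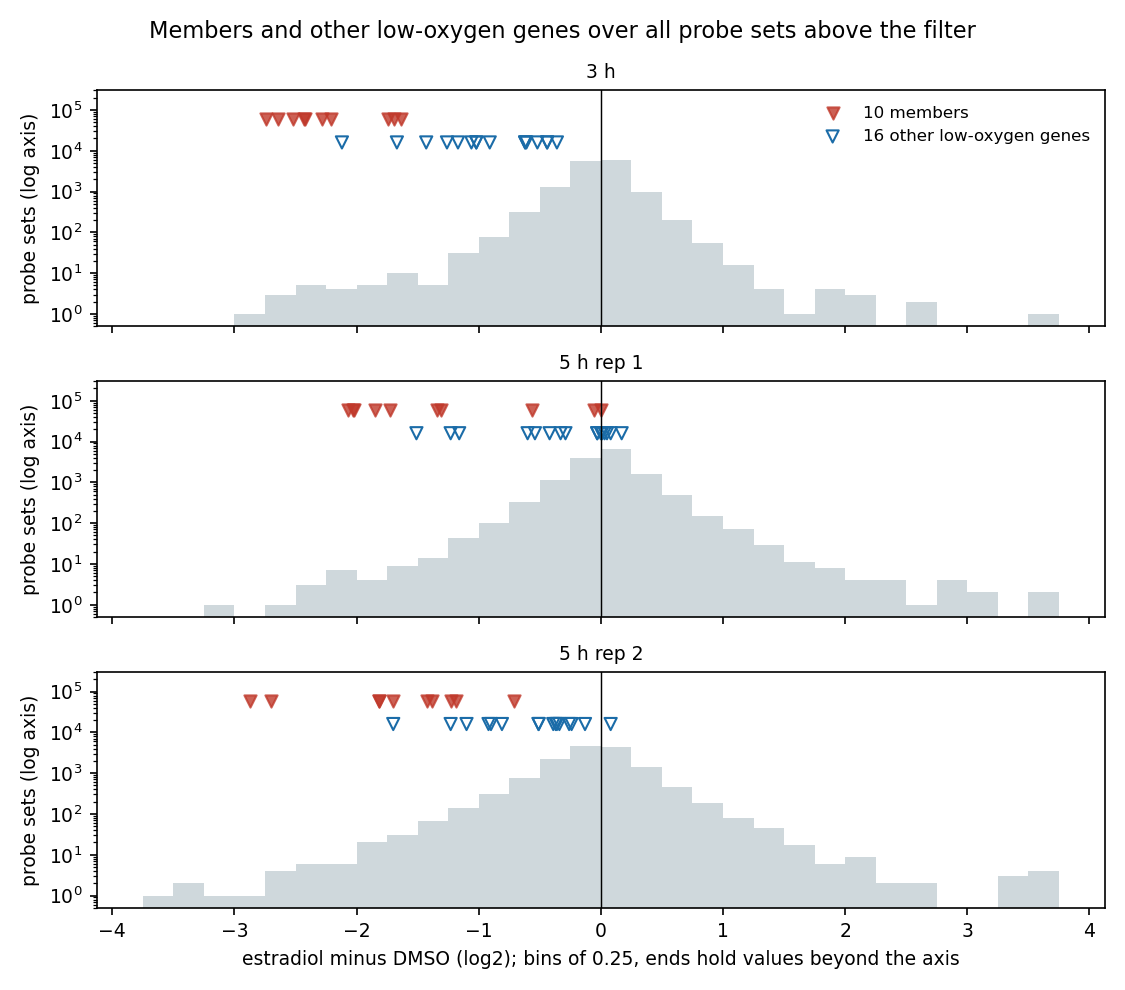
Histogram of estradiol minus DMSO differences (log2, x axis) over the 14520 probe sets above the filter (grey, log y axis) in the 3 pairs, with the 10 members (red triangles) and the 16 other low-oxygen genes (open blue triangles) placed above it. At 3 h the members span −2.74 to −1.64, and in replicate 1 at 5 h some of both sets lie at 0.

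Over both times, limma with time as a covariate called 0 of the 16 other low-oxygen genes, of which 3 had an unadjusted p below 0.05 (1.9% of all probe sets). The same fit called 0 of 14520 probe sets lower (0%) and 1 higher (0.00689%), which has no named gene here. With the pair as a block it called 0 of the 16 (lowest adjusted p = 0.5), of which 6 had an unadjusted p below 0.05 (9.75% of all probe sets), and it called 0 of all probe sets. At 5 h limma called 0 of the 16, of which 0 had an unadjusted p below 0.05 (1.15% of all probe sets). In the blocked fit at 5 h 3 did (8.29%), with a lowest adjusted p of 0.58. Without the block, the 5 h fit called 0 of 14078 probe sets lower (0%) and 1 higher (0.0071%). With the block it called 0 of all probe sets. These fits had 3 and 2 residual degrees of freedom over both times and 2 and 1 at 5 h, without and with the block, and the lack of calls does not show that these genes did not differ.

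By Euclidean distance over the 3 pair differences, the named genes outside the 10 that were most like HRA1 were AT5G26200 (distance 2.08), AT4G33560 (2.13), AT1G21050 (2.16), AT5G03230 (2.22) and AT1G15010 (2.3), of 7845 compared. The members AT4G24110 and AT1G33055 were nearer to HRA1, at distances of 1.02 and 1.05, whereas AT4G27450 and AT5G10040, at 2.22 and 2.23, were about as far from it as the 5 genes. AT5G26200 differed by −1.69, −0.73 and −1.14, and AT1G21050 by −0.76, −1.17 and −1.80. None of the 5 was as low as HRA1 in any pair. HRA1 was chosen with these differences in view and the other members were left out, so this is a description only.

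Genes next to the members in the genome were compared as well, a choice made after the values were seen. Of 40 protein-coding genes within 2 places of a member in the TAIR10.1 annotation, 23 had a named probe set and 15 passed the filter, beside 7 of the members. Their median difference was 0.00 at 3 h, 0.01 in replicate 1 and −0.12 in replicate 2 at 5 h. Over all probe sets above the filter it was −0.01, 0.00 and −0.04. In the same order, 7, 5 and 12 of the 15 were lower with estradiol (50.1%, 39.3% and 55.3% of all probe sets). At least 2-fold lower were 0, 0 and 1 of them (0.461%, 0.606% and 1.98%). The mean over pairs ran from −0.69 to 0.31, and 0 of 15 were at least 2-fold lower on average, beside 0.31% of all probe sets. The members' means of −2.36 to −1.24 were fixed by their choice, so the contrast with the neighbours was not tested. Beside HRA1, AT3G10030 differed by 0.07, 0.21 and −0.46, and AT3G10020, itself a low-oxygen response gene, by −0.44, −0.54 and −0.26. The lowest neighbour was AT3G27210, next to AT3G27220, at −0.37, −0.16 and −1.55.

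**Figure D4:**
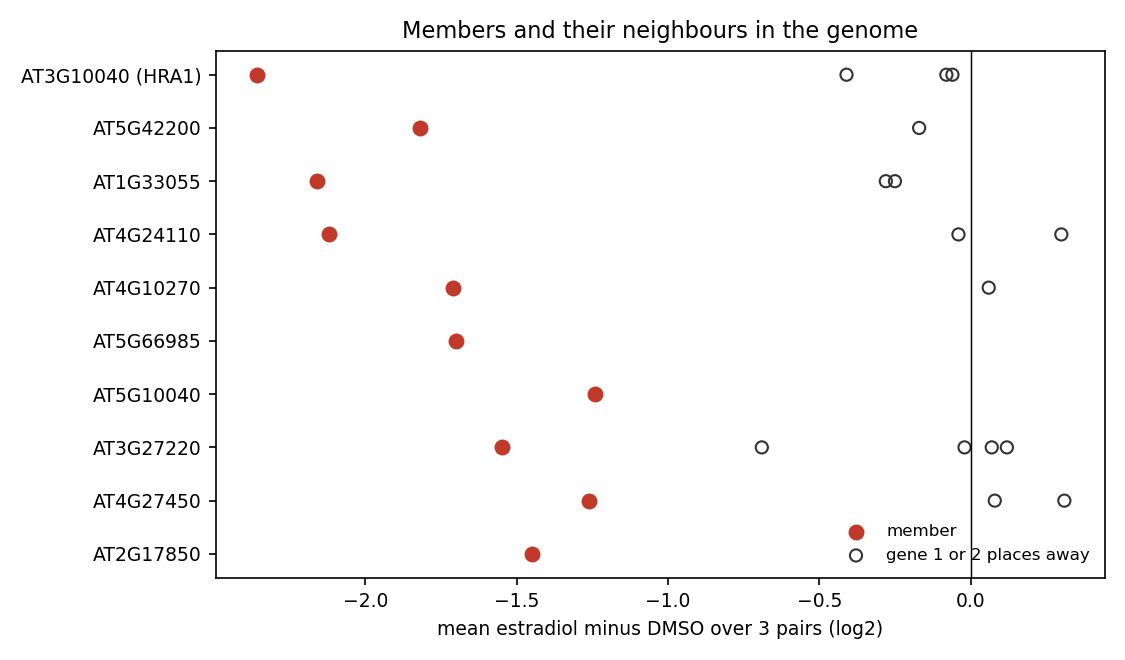
Mean estradiol minus DMSO difference over 3 pairs (log2, x axis) of each member (red) and of the genes 1 or 2 places away that passed the filter (open circles), by member (y axis). The neighbours lie between −0.69 and 0.31 and the members between −2.36 and −1.24; 3 members have no neighbour above the filter.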

How the data were processed

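The table the authors deposited gives log2 values, 1 for each probe set on each array. Per the submitters' processing notes GCRMA and RMA were used, with no version or role stated. The log base, 2, was inferred from the value range (2.1 to 15.35). Of 22810 probe sets, 64 controls were left out and 22746 kept. The platform annotation gave 13513 probe sets 1 gene (13436 matched to RefSeq TAIR10.1), 503 several and 8730 none. The values hold no separate background signal.

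Differences were taken within pairs and are given as mean and SD over 3 pairs. Tests used limma 3.58.1 in R 4.3.3 (two-sided, lmFit and eBayes with trend, calls at a Benjamini-Hochberg adjusted p below 0.05). They covered probe sets with at least 2 arrays of the fit at or above the 40th percentile (3.56). The fits over both times were also run on simulated data, with changes larger than any member difference. That run does not show how well the tests find differences of the sizes given here. The members and lists were chosen with earlier results of these data known. Genes named outside the members were those of the regulator and fermentation lists, markers, the 5 nearest to HRA1, and genes marked as picked later; the 3 glycolysis genes were named after their values were seen. The labels call the replicates biological but do not say whether samples came from separate cultures. The p-values therefore reflect the spread of these samples, and how far that spread is technical is not known.

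The labels number the replicates. When each array's deviation from its treatment mean was taken, the 2 arrays of a pair correlated at 0.940, 0.927 and 0.907 over probe sets, and the numbers were taken to pair the arrays. These deviations also hold differences of time and of any separate normalization, so they do not bear on the numbers alone. The alternatives were the pair as a block, quantile normalization, array medians subtracted, other filters, no trend, and leaving out arrays or pairs.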

Additional observations from a re-analysis of the deposited data

Results flagged for a closer look

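For 3 genes named beside the members the sign at 3 h was the reverse of that in both 5 h pairs, and this difference between times was not tested. AT5G42740, a phosphoglucose isomerase gene, was at 0.06 at 3 h and at −0.09 and −0.39 at 5 h. LHCB4.1 (AT5G01530) was at 0.04 and at −0.01 and −0.31. Several of these values are small beside the SD of 0.26 to 0.41 over probe sets in a pair. AT4G24130, which lies 2 places from the member AT4G24110, was at −0.37 at 3 h and at 0.84 and 0.42 at 5 h, while AT4G24110 itself was lower with estradiol in all 3 pairs.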

How the results depend on the processing

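The median of the 10 members' mean differences was −1.71 and lay between −1.97 and −1.49 when each pair was left out in turn, at −1.71 after quantile normalization and −1.70 with array medians subtracted. Without the 3 h pair the mean difference was −0.65 for AT5G10040 and −0.91 for AT2G17850, against −1.24 and −1.45 with it. The number of members at least 2-fold lower in all pairs was 6 under both scalings, as without them. The median of the 16 other low-oxygen genes was −0.57 and ranged from −0.74 to −0.44 with a pair left out, −0.55 after quantile normalization and −0.54 without the filter. Limma called the same single probe set over both times and at 5 h, and it was lost (0 calls) with the replicate block, quantile normalization, no filter, all arrays above the filter and no trend. With 1 array left out the calls ranged from 0 to 1 in both fits. They were 0 over both times without any single 5 h array, and 0 at 5 h without either estradiol array, where the lone array was assumed to vary like the other group. The cause was not tested. The block changed no other call given here.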
